A study of Mus musculus with 4 samples.

Results

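The Crym and Frzb high tanycytes were 146 of 1298 kept wells, each holding 1 sorted cell profile, in a study of hypothalamic cells that carried a leptin receptor reporter. They were chosen from measured values. A well was kept with at least 1000 counts outside spike-ins and mitochondrial genes, and counts were scaled to 10000 per well. A member had a sum under 12 for the neuron genes Snap25, Syt1, Stmn2, Tubb3 and Rbfox3. Its sum for Rax, Crym, Frzb, Col23a1, Scn7a and Col25a1, called the tanycyte sum below, was at least 10 and larger than the sums of 5 astrocyte genes and of 4 endothelial genes. Its sum for Crym, Frzb and Slit2 was at least as large as that for Scn7a and Col25a1. Wells that met the other conditions but had the larger Scn7a and Col25a1 sum, 107 in all, are the Scn7a/Col25a1 tanycytes, and 143 wells whose astrocyte sum was at least 10 and the largest are the astrocytes used for comparison.

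The animals were C57BL/6 mice carrying Lepr-cre and Rosa-LSL-tdTomato, and every plate was sorted from the hypothalamus. The fasted group is 1 plate of 384 wells from animals without food for 24 h, and the fed group is 3 such plates. The cre acts from the leptin receptor locus, and the reporter stays on once it has recombined, so a sorted cell may hold no Lepr RNA. How many animals went into a plate, and their age, are not stated in the labels. P-values therefore measure only the spread between these plates, which may be technical, and with 1 fasted plate the plate and the feeding state cannot be told apart.

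Tanycytes are elongated cells of ependymal origin that line the floor and lower walls of the third ventricle and send a process into the arcuate nucleus, the ventromedial nucleus or the median eminence. They carry glucose, thyroid hormone and leptin signals between blood, cerebrospinal fluid and neurons, and they activate thyroid hormone with the deiodinase Dio2. Crym is a cytosolic protein that binds thyroid hormone. Frzb is a secreted Frizzled-related protein that holds back Wnt ligands, Slit2 is a secreted guidance cue, Rax is the homeobox factor of tanycytes and the developing hypothalamus, Col23a1 is a membrane collagen, and Gpr50 is an orphan receptor related to the melatonin receptors.

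The 250 bases before the RefSeq gene start are printed for Frzb, which is in the member rule, and for Dio2 and Gpr50, the tanycyte genes outside the rule on which the fasted and fed values turn. They come from the RefSeq promoter table of build GRCm38.p6, in which all 3 genes looked up were found, and are written 5′ to 3′ on the strand of the gene. Capitals mark matches to the TATA box TATAAA, the GC box GGGCGG or the cAMP response element TGACGTCA, searched on both strands with no overlap between them.
Frzb: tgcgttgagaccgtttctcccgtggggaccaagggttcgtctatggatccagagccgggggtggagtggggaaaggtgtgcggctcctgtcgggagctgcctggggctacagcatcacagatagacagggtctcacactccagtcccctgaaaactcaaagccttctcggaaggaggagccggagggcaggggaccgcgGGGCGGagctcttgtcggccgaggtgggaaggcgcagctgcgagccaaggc
Dio2: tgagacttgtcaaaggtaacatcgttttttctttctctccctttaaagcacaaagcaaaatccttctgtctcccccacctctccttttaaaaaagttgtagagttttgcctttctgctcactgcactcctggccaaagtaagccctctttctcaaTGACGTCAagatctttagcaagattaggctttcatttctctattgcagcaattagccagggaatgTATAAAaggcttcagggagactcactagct
Gpr50: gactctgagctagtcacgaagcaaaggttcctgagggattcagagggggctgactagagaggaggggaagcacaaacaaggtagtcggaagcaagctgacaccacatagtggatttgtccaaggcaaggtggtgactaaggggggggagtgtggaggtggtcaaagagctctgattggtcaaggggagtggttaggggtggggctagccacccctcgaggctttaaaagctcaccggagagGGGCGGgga
The Frzb window is chr2:80447397-80447646 on the minus strand, with 64.4% G and C. Its GC box runs from 51 to 46 bases before the start. The Dio2 window, chr12:90739039-90739288 on the minus strand, has 41.6% G and C, with the TATA box at 30 to 25 bases and the cAMP response element at 95 to 88 bases before the start. The Gpr50 window, chrX:71663417-71663666 on the plus strand, has 56.8% G and C and a GC box at 9 to 4 bases. Among all 32851 windows of 250 bases in the table, TATAAA was present in 12.37%, GGGCGG in 32.74% and TGACGTCA in 1.55%. The starts differ from the GENCODE gene ends given below for Frzb, whose window lies mostly inside the GENCODE gene, and for Dio2, whose window lies upstream of it with a gap. These matches describe the letters alone.

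The member wells were shallow, single cells. Their median total was 9086 counts on the fasted plate and 6180, 5875 and 6510 on fed plates 1, 2 and 3, with 1036 to 26594 counts per well. Summed over all 384 wells, kept or not, the plates held 5140018 counts (fasted) and 5546516, 4440490 and 4747022 counts (fed 1 to 3). Mitochondrial genes took a median of 12.4% of the counts of fasted members and 11.4, 8.75 and 10.8% of fed members. The plates also differed in sex. Xist without any Y-linked transcript was seen in 34 of the 40 fasted members, and in 1 of 25, 20 of 49 and 7 of 32 fed members.

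The genes of the label chose the members, so their presence is a description. Crym, Frzb and Slit2 were all present in 99 of the 146 wells, 123 had at least 1 count of Crym or Frzb, 19 had Slit2 alone and 4 had none of these genes. After each well was thinned to 1000 UMIs, Frzb was seen in 43.8% of members, against 29.9% of Scn7a/Col25a1 tanycytes and 1.40% of astrocytes, where it counts as background. Unthinned, these shares were 79.5, 73.8 and 11.9%, at median totals of 6407, 7659 and 5676 counts. Crym was seen in 39.0, 16.8 and 2.10% of the same kinds after thinning, and in 74.7, 47.7 and 4.20% before it. By plate the order was not always the same. On the fasted plate thinned Crym was in 17.5% of members and 28.6% of the 7 Scn7a/Col25a1 wells, and on fed plate 3 thinned Frzb was in 28.1 and 31.7%. Gpr50, which the rule did not use, was seen in 49.3% of thinned members, 47.7% of Scn7a/Col25a1 tanycytes and 2.10% of astrocytes, and in 84.2, 82.2 and 9.09% unthinned. Lepr itself was in 0 of 146 thinned members, which allows a share of up to 2.05% of wells with a UMI, and in 7.53% unthinned, against 4.20% of astrocytes. Shares, intervals and such limits cover counting error only.

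Some wells sat near the edges of the rule. The tanycyte sum had a median of 48.8 per 10000 and ran from 12.06 to 120.3. The 5 members nearest the threshold had sums of 12.06 to 14.5, and the 5 nearest wells under it 8.39 to 9.81. In 39 members the Crym, Frzb and Slit2 sum was less than 2 times the Scn7a and Col25a1 sum, and in 41 the second sum was 0. In 8 members the summed markers of vascular and leptomeningeal cells (VLMC) and pericytes were above the tanycyte sum. Leaving those out left 36 fasted wells and 25, 48 and 29 fed wells, and counts without them are given below.

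Members made up 14.5% of kept wells on the fasted plate (40 of 275, exact 95% Clopper-Pearson interval 10.6 to 19.3). On the fed plates they made up 7.02% (25 of 356, 4.60 to 10.2), 14.9% (49 of 329, 11.2 to 19.2) and 9.47% (32 of 338, 6.57 to 13.1). The fasted share lay inside the fed range. Among tanycytes of both kinds the fasted plate had 85.1% members (40 of 47, interval 71.7 to 93.8), against 49.0, 59.8 and 43.8% on the fed plates. That value lay outside the fed range, but with 1 plate against 3 an exact permutation test cannot give a p below 0.25, and the share rests on 7 fasted Scn7a/Col25a1 wells. Scn7a, Col25a1 and Slit2, which are among the genes that decide the kind of tanycyte, themselves differed between plates. On the scale of the rule, the median of Col25a1 in members was 0.82 on the fasted plate, against 13.5, 7.39 and 6.18 on the fed plates. The median of Scn7a in members was 0 on every plate.

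**Figure D1:**
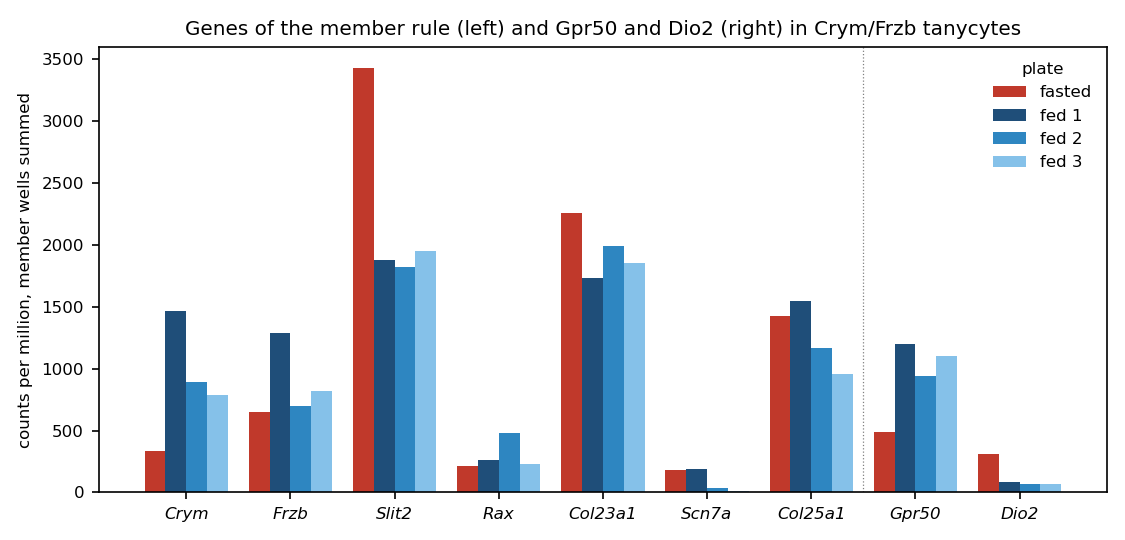
CPM of the tanycyte genes of the member rule (left of the dotted line) and of Gpr50 and Dio2, in the member wells summed per plate; each bar is 1 plate, fasted in red and fed in blues. Crym was at 338 on the fasted plate and 791 to 1462 on the fed plates, and Slit2 at 3428 and 1824 to 1947.

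The genes that chose the members varied between plates, given here as a description. Levels are CPM, the counts of a gene scaled to a common total over the summed member wells of a plate. Crym (chr7:120186380-120202111, minus strand) stood at 338 CPM on the fasted plate and 1462, 893 and 791 CPM on fed plates 1, 2 and 3. A Crym count was present in 24 of 40 fasted wells, and in 24 of 25, 41 of 49 and 20 of 32 fed wells. After thinning to 1000 UMIs the shares were 17.5% fasted and 68.0, 46.9 and 31.3% fed, so the fasted plate was below every fed plate in level and in share at equal depth. Frzb (chr2:80411970-80447625, minus strand) was at 647 CPM, against 1288, 699 and 817 CPM. Slit2 (chr5:47983138-48307733, plus strand) ran the other way, at 3428 CPM on the fasted plate, against 1880, 1824 and 1947 CPM. Rax was at 213 CPM, against 261, 480 and 232 CPM, and Col23a1 at 2259 CPM, against 1735, 1989 and 1853 CPM. Scn7a had the widest relative range of these genes over the fed plates, at 178 CPM when fasted and 192, 38.1 and 8.60 CPM when fed. Across the 146 wells, thinned to 1000 UMIs and centred by plate, the Spearman rho of Crym and Frzb was 0.0164. This is a description, since both genes are in the sums that chose the wells, and wells of the same plate are not independent. The genes outside the rule most like Frzb among 2221 compared were Tpd52l2 (rho 0.362) and the glycolytic aldolase Aldoc (0.342), both weak.

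The fasted members were set against the fed members with edgeR's quasi-likelihood test on the summed wells, with Benjamini-Hochberg adjustment over all genes. Of 8435 genes tested, 66 passed an adjusted p of 0.05, which is 0.782%. Higher when fasted were 40 (0.474%) and lower were 26 (0.308%). Among them, Crym belongs to the rule and 3 are Y-linked genes that follow the sex of the plates. The median log2 difference over all tested genes was -0.04. The spread comes from the 3 fed plates alone, and the lone fasted plate is assumed to vary like them. Leaving out the 8 wells with more VLMC and pericyte markers raised the count to 206 of 8044, and 63 of the 64 original calls still tested remained. The count was 186 without fed plate 1, 117 without fed plate 3 and 27 with DESeq2.

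Wfikkn2, a secreted protein that binds myostatin and related growth factors, had the largest difference of the named genes apart from Pparg and Ranbp3l. It stood at 263 CPM on the fasted plate and at 29.0, 15.9 and 12.9 CPM on the fed plates. A count was present in 21 of 40 fasted wells, against 5 of 25, 4 of 49 and 2 of 32 fed wells. The log2 difference was 3.81 (SE 0.42, edgeR adjusted p = 8.1e-08). In Scn7a/Col25a1 tanycytes it stood at 75.1 CPM when fasted and 0, 17.0 and 13.5 CPM when fed, and in astrocytes at 9.79, 0, 0 and 0 CPM. Gria1, a subunit of AMPA glutamate receptors, was at 692 CPM, against 52.2, 127 and 176 CPM (log2 difference 2.50, SE 0.36, adjusted p = 0.00063). Its counts were in 26 of 40 fasted wells, against 6 of 25, 17 of 49 and 16 of 32 fed wells. The 3 highest wells held 51.2% of its fasted counts. Without the 3 highest wells of each plate, Gria1 was at 395 CPM fasted and 20.5, 89.4 and 93.7 CPM fed. Cables1, a protein that links cyclin-dependent kinases to partners, was at 168 CPM, against 11.6, 31.8 and 4.30 CPM (3.21, SE 0.51, adjusted p = 0.00031). The 3 highest wells held 52.4% of the fasted Cables1 counts. Named genes were chosen with the fasted plate outside the fed range, and counts of wells are at unequal depth, with a median of 9086 counts when fasted and 5875 to 6510 when fed.

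Other genes higher when fasted had a variety of roles. Fkbp5, the chaperone-binding protein that glucocorticoids induce, was at 125 CPM, against 29.0, 19.1 and 55.9 CPM (1.87, SE 0.48, adjusted p = 0.046, which did not pass without fed plate 2). It was the 1 gene called among 11 of the glucocorticoid list, of which 8 had a positive difference (list median 0.65), beside 0.474% of all genes called higher. Without the 8 wells with more VLMC and pericyte markers, 2 of 9 were called higher. Slc6a6, the taurine transporter, was at 676 CPM, against 203, 137 and 309 CPM (1.65, SE 0.32, adjusted p = 0.0052), the single riser among 19 genes of glutamate, GABA and ion transport. Etnppl, which breaks down phosphoethanolamine, was at 120 CPM, against 5.80, 22.2 and 8.60 CPM (3.09, SE 0.56, adjusted p = 0.0012). The non-coding RNA Malat1, which stays in the nucleus, was at 8716 CPM, against 2461, 2739 and 3331 CPM (1.61, SE 0.23, adjusted p = 4.5e-05). Ces1d (2.59), Abca8a (2.53, lost without fed plate 2) and Frmpd4 (2.31) were the other named risers. The 3 highest fasted wells held 57.8, 40.6, 54.8 and 48.6% of the fasted counts of Etnppl, Ces1d, Abca8a and Frmpd4. Malat1 was also higher on the fasted plate in Scn7a/Col25a1 tanycytes, at 11658 CPM against 2429, 4256 and 4271 CPM, and in astrocytes, at 12814 CPM against 6182, 5593 and 4421 CPM. The genes called higher had a median span in the genome of 99.2 kb and those called lower 7.92 kb, against 32.2 kb for all tested genes. The part of RNA quality in the calls was not tested.

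Chgb, a granin of secretory granules, was at 234 CPM on the fasted plate, against 63.8, 25.4 and 12.9 CPM (2.88, SE 0.43, adjusted p = 0.00024). Over all kept wells it was at 1210 CPM on the fasted plate and 618, 217 and 252 CPM on the fed plates, and it was also higher in fasted astrocytes, at 191 CPM against 0, 42.7 and 80.0 CPM. Summed markers of the pars tuberalis, the pituitary tissue under the median eminence, were at 1240 CPM in fasted members, against 57.2 to 278.6 CPM in fed members, with 7 of 8 markers present when fasted and 3 or 4 when fed. Chga, another granin and the largest of them, was at 1080 CPM, against 197, 22.2 and 64.5 CPM. On the fasted plate the pars tuberalis sum was also 1596 CPM in Scn7a/Col25a1 tanycytes, 1339 CPM in astrocytes and 6104 CPM in wells not kept. On fed plates 1, 2 and 3 it was 223, 51.0 and 125 CPM in Scn7a/Col25a1 tanycytes. In astrocytes it was 1159 (3 wells), 299 and 362 CPM there, and in wells not kept 2092, 332 and 663 CPM. The part of pars tuberalis RNA in the Chgb difference was not tested.

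For several genes a few wells held much of the fasted level. Dio2 (chr12:90724552-90738438, minus strand) stood at 311 CPM on the fasted plate, against 81.2, 69.9 and 64.5 CPM on the fed plates. The log2 difference was 2.11 (SE 0.34, adjusted p = 0.0002). A Dio2 count was present in 15 of 40 fasted wells (37.5%), and in 12 of 25 (48.0%), 13 of 49 (26.5%) and 10 of 32 (31.3%) fed wells. At equal depth, with each well thinned to 1000 UMIs, a count remained in 17.5% of fasted wells (7 of 40), against 4.00, 4.08 and 6.25% of fed wells, outside the fed range. The 3 highest wells held 71.8% of the fasted Dio2 counts, and 35.7, 45.5 and 46.7% of the fed ones. Without the 3 highest wells of each plate the levels were 104 CPM fasted and 60.2, 42.1 and 40.1 CPM fed. Scn7a/Col25a1 tanycytes had Dio2 at 282 CPM when fasted and 191, 157 and 195 CPM when fed.

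Few wells also held most of the counts of other risers. Pparg, the nuclear receptor of fat storage, was at 74.5 CPM, against 0, 0 and 8.60 CPM (4.52, SE 1.17, adjusted p = 0.046, lost without fed plate 2). Counts of it came from 5 fasted wells, and 85.7% of them from 3. Ranbp3l was at 160 CPM, against 0, 22.2 and 0 CPM, with 91.7% of the counts in 3 of 40 wells. Pde10a, a phosphodiesterase of cyclic nucleotides, was at 170 CPM, against 11.6, 22.2 and 17.2 CPM, and Cp, the copper protein ceruloplasmin, at 213 CPM, against 17.4, 38.1 and 34.4 CPM, with 90.6 and 81.3% of fasted counts in 3 wells. Tgfb2, a transforming growth factor that tanycytes secrete, was at 258 CPM, against 63.8, 63.5 and 103 CPM (1.74, SE 0.34, adjusted p = 0.0039), with 73.2% in 3 wells. Ranbp3l and Cp fell under the filter on low counts when the 8 wells with more VLMC and pericyte markers were left out. Summed VLMC markers stood at 937 CPM in fasted members and 151 to 1195 CPM in fed members, and pericyte markers at 354 and 81.3 to 537 CPM.

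Gpr50 and Penk were the tanycyte list genes lower in fasted members. Of 20 tanycyte identity genes 1 was higher (Dio2) and 1 lower, and of 24 secreted protein genes 1 was higher (Tgfb2) and 1 lower. Over all tested genes 0.474% were higher and 0.308% lower. Gpr50 (chrX:71663667-71669257, plus strand) was at 487 CPM on the fasted plate, against 1201, 941 and 1100 CPM on the fed plates. It was present in 30 of 40 fasted wells, against 24 of 25, 42 of 49 and 27 of 32 fed wells, and after thinning in 10 of 40 fasted wells, against 14 of 25, 26 of 49 and 22 of 32 fed wells. The difference was -1.15 (SE 0.29, adjusted p = 0.044), and it did not pass without fed plate 2 (adjusted p = 0.086) or fed plate 3 (0.051). Penk, the enkephalin precursor, was at 120 CPM, against 279, 369 and 451 CPM when fed (-1.62, SE 0.37, adjusted p = 0.016). After thinning, a Penk count remained in 4 of 40 fasted wells, against 2 of 25, 10 of 49 and 7 of 32 fed wells. That fasted share lay inside the fed range. The 3 highest wells held 46.7% of the fasted Penk counts, and 52.1, 38.8 and 77.1% of the fed ones. Without the 3 highest wells of each plate, Penk was at 69.6 CPM fasted and 156, 256 and 119 CPM fed. Penk in Scn7a/Col25a1 tanycytes was at 357 CPM when fasted and 261, 251 and 219 CPM when fed.

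Among ciliary genes, Pifo, which takes part in the disassembly of primary cilia, was at 18.6 CPM, against 116, 92.1 and 77.4 CPM (-2.31, SE 0.56, adjusted p = 0.033, lost without fed plate 2), and Cfap52, a protein of motile cilia, at 47.9 CPM, against 168, 130 and 155 CPM (-1.64, SE 0.42, adjusted p = 0.044). Dynll1, a dynein light chain, was at 122 CPM, against 360, 369 and 395 CPM. None of 9 tested ependymal markers passed, 8 of them had a negative difference, and their summed level was 748 CPM when fasted and 1100 to 1296 CPM when fed. Calr, the calcium-binding chaperone of the endoplasmic reticulum, was at 138 CPM, against 354, 311 and 413 CPM (-1.38, adjusted p = 0.044, lost without fed plate 2 or 3). Ifitm3, an interferon-induced membrane protein, was at 24.0 CPM, against 128, 95.3 and 125 CPM. Laptm4b, Itm2a, Stmn3, Sv2a and Prrt1 were also lower, with log2 differences of -1.96 to -1.48, though Itm2a, Sv2a and Prrt1 did not pass without fed plate 2. Nenf (-1.85) and Naa60 (-1.74) were lower too and likewise lost without that plate.

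**Figure D2:**
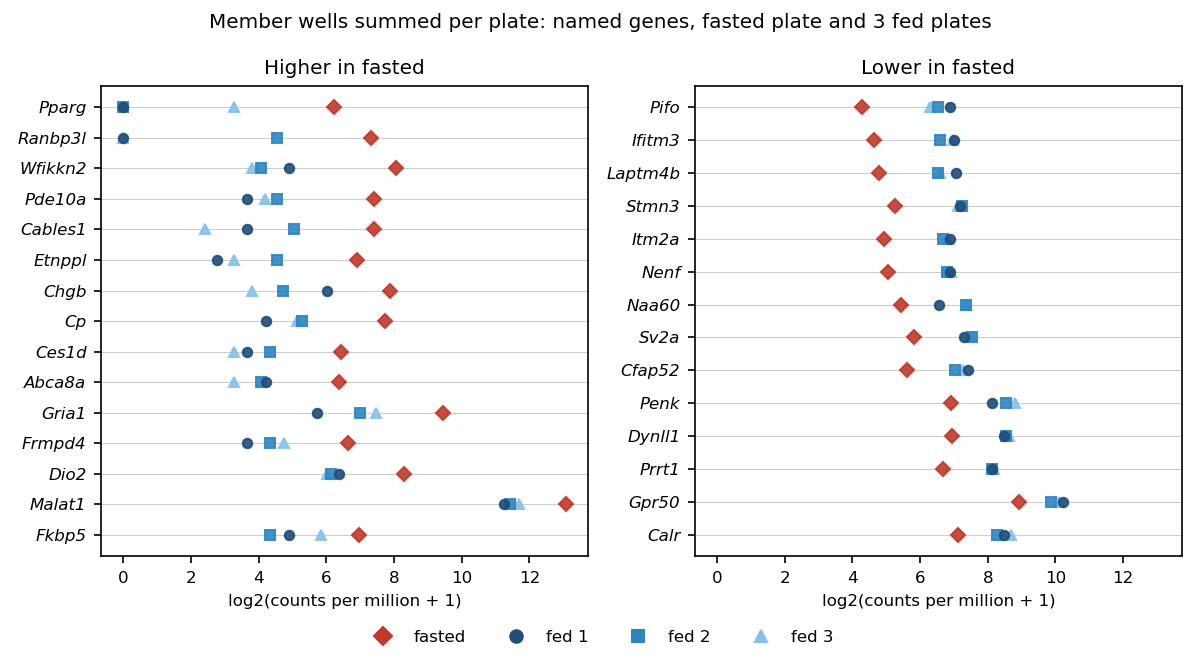
Levels of the named genes as log2(CPM + 1) in the member wells summed per plate, with the fasted plate as red diamonds and the 3 fed plates as blue symbols. Nearly all of these genes were chosen with the fasted point outside the fed range; Wfikkn2 was at 263 CPM fasted and 12.9 to 29.0 CPM fed, and Gpr50 at 487 and 941 to 1201 CPM.

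Most pathway lists had no gene that passed, beside 0.782% of all tested genes. At that share, lists of this size would mostly hold no call. None of 12 cholesterol synthesis genes passed (1 with a positive difference, list median -0.90), none of 14 glycolysis genes (median -0.64), none of 25 nuclear genes of oxidative phosphorylation (median -0.44) and none of 29 ribosomal protein genes (median -0.01). The 18 immediate early genes had a median of -0.04, the 18 genes of fatty acid use -0.20, the 13 clock genes 0.31 and the 22 Wnt pathway genes 0.08, with no call in any of them. Of 12 thyroid hormone genes tested, Dio2 alone passed. Trhde, which degrades TRH, was at 202 CPM, against 128, 60.4 and 73.1 CPM (1.27, adjusted p = 0.085), and Klf9, a factor that thyroid hormone and glucocorticoids induce, at 405 CPM, against 186, 210 and 245 CPM (0.91, adjusted p = 0.17). Without the 8 wells with more VLMC and pericyte markers, Trhde, Klf9 and Rxra also passed. In that setting 1 of 14 glycolysis genes and 1 of 25 oxidative phosphorylation genes were lower, 1 of 28 ribosomal protein genes and 1 of 18 fatty acid genes were higher, and of 15 clock genes 2 were higher and 1 was lower. The cholesterol, immediate early and Wnt lists again had no call.

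A further fit used only wells with Xist and no Y-linked transcript. This left 34 wells of the fasted plate and 20 and 7 wells of fed plates 2 and 3. The spread then comes from those fed plates alone. Then 12 of 4199 genes passed. Dio2 (3.47, adjusted p = 0.0014), Wfikkn2 (5.37), Gria1 (2.39, adjusted p = 0.0069), Chgb (3.59, adjusted p = 0.020) and Malat1 (1.44, adjusted p = 0.047) were among them. Gpr50 had nearly the same difference, -1.13, but did not pass (adjusted p = 0.62), and Tgfb2 turned to -0.12. Of the 66 genes called in all member wells, 60 were tested, 8 passed and 59 kept their sign.

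The members were next set against Scn7a/Col25a1 tanycytes of the same plates, with plate as a block. Because the wells were divided by genes measured in the same cells, the other genes describe how the divided kinds differ and do not test the division. Of 5929 genes, 210 (3.54%) passed an adjusted p of 0.05 in edgeR's quasi-likelihood test, 88 higher (1.48%) and 122 lower (2.06%) in members. This rests on 7 Scn7a/Col25a1 wells on the fasted plate, against 26, 33 and 41 on the fed plates. The count was 127, 111 and 92 without fed plates 1, 2 and 3, and 92 without the block.

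Of the 7 ependymal markers tested, 2 were higher in members, beside 1.48% of all tested genes. Foxj1, the factor that drives motile cilia, was at 95.8, 157, 222 and 138 CPM in members (fasted, then fed 1 to 3), against 18.8, 54.5, 51.0 and 59.6 CPM in Scn7a/Col25a1 tanycytes of the same plates (log2 difference 1.65, SE 0.29). Pih1d2, from a family of dynein assembly factors, was at 50.6, 69.6, 44.5 and 64.5 CPM, against 18.8, 10.9, 4.25 and 19.0 CPM, and did not pass without fed plate 1 or 2. All 7 ependymal markers had a positive difference, and those that passed were Foxj1 and Rarres2, the chemokine chemerin (1.68, SE 0.29). Their list median was 0.74, against 0.02 over all genes. Summed ependymal markers were at 748, 1103, 1296 and 1100 CPM in members and 638, 528, 578 and 547 CPM in Scn7a/Col25a1 tanycytes.

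Some glial transport genes were higher in members, while secreted genes went both ways. Slc1a2, the main glutamate transporter of astrocytes, stood at 572, 261, 613 and 395 CPM in members, against 206, 38.1, 102 and 122 CPM (2.10, SE 0.23), and 4 of 17 transport genes passed as higher and none as lower. Of 19 secreted protein genes, 5 were higher and 3 lower, with a median of 0.08. Over all tested genes 1.48% were higher and 2.06% lower. Clu, the secreted chaperone clusterin, was at 341, 453, 391 and 537 CPM, against 131, 169, 111 and 130 CPM (1.74, SE 0.21). Apoe and Cst3, a secreted protease inhibitor, were higher by 0.77 and 0.97, and Apoe did not pass without fed plate 3. Vcan, the matrix proteoglycan versican, was at 160, 203, 375 and 245 CPM, against 18.8, 59.9, 106 and 94.8 CPM (1.71, SE 0.25). P3h2, a collagen prolyl hydroxylase, and Ramp1, a subunit of the CGRP receptor, were higher by 2.10 (SE 0.27) and 2.51 (SE 0.40). Ramp1 stood at 71.9, 110, 76.3 and 159 CPM in members, against 18.8, 10.9, 12.8 and 32.5 CPM. Summed astrocyte markers were at 655, 499, 480 and 585 CPM in members, against 357, 218, 361 and 314 CPM in Scn7a/Col25a1 tanycytes. The part of astrocyte RNA in these differences was not tested.

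Genes lower in members included the following. Gria3, an AMPA receptor subunit, was at 34.6, 5.80, 15.9 and 17.2 CPM in members, against 300, 180, 191 and 106 CPM in Scn7a/Col25a1 tanycytes (-3.32, SE 0.35). The calcium channel subunits Cacnb4 (-2.92, SE 0.27) and Cacna2d2 (-2.80, SE 0.29) and the matrix protease Tll1 (-2.55, SE 0.25) were lower in every plate too. Fndc3c1 was at 98.5, 104, 41.3 and 21.5 CPM, against 488, 447, 285 and 569 CPM, and Rgcc, a regulator of the cell cycle, at 95.8, 34.8, 50.8 and 90.3 CPM, against 206, 321, 251 and 525 CPM. Vegfa, the growth factor of blood vessels, was at 98.5, 98.7, 89.0 and 81.7 CPM, against 244, 256, 225 and 190 CPM (-1.30, SE 0.23). The receptor genes Fgfr1, Erbb4 and Igf1r and the Hedgehog receptor Ptch1 were lower, with differences of -1.15 to -0.84; Ptch1, Fgfr1 and Igf1r did not pass without fed plate 3, nor Fgfr1 and Igf1r without fed plate 1. Of 19 tanycyte identity genes, 4 were lower and none higher, beside 2.06% of all tested genes lower. They were Rgcc, Tbx3 (-1.38), Dio2 (-0.92, SE 0.26) and Six3 (-0.56). Dio2 did not pass when fed plate 1, 2 or 3 was left out, nor Six3 without fed plate 2 or 3. Gpr50 differed by 0.49 (SE 0.16) and did not pass, though it did without the VLMC and pericyte wells (0.53).

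**Figure D3:**
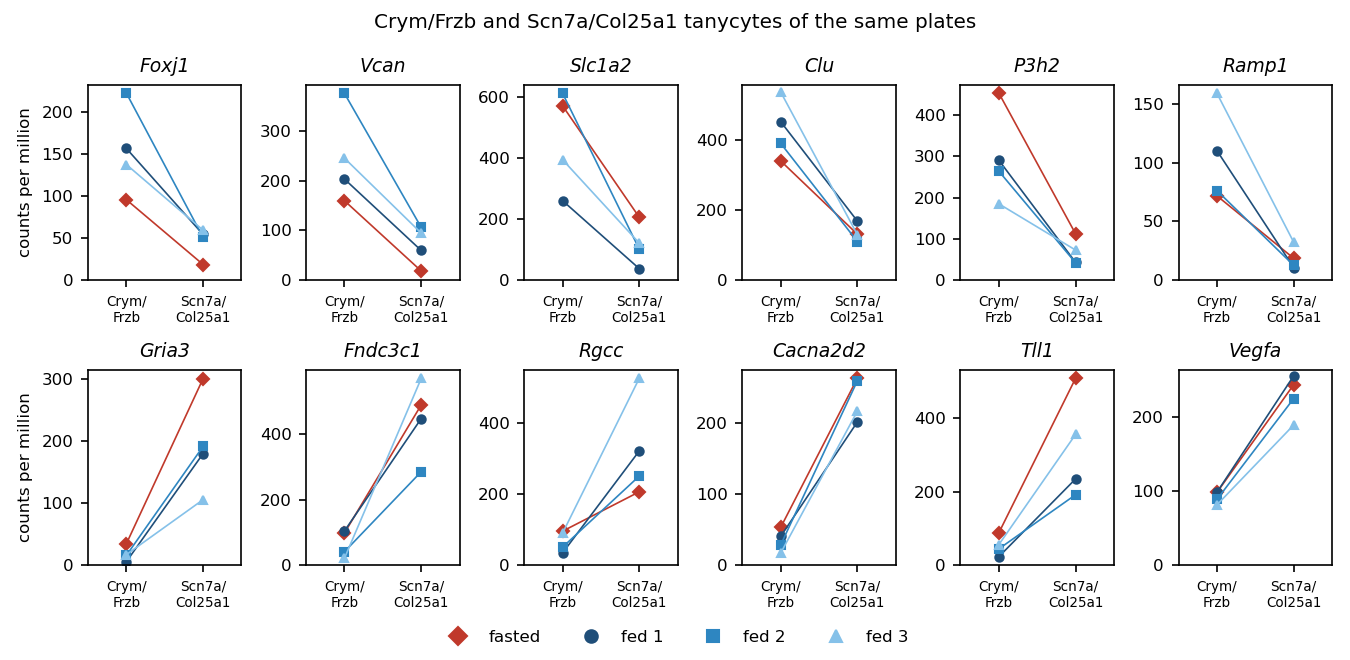
CPM of 6 genes higher (top) and 6 lower (bottom) in Crym/Frzb tanycytes than in Scn7a/Col25a1 tanycytes, with wells of a kind summed per plate and a line joining the same plate. All 4 lines run in one direction in each panel; Foxj1 was at 95.8 to 222 CPM in Crym/Frzb tanycytes and 18.8 to 59.6 CPM in Scn7a/Col25a1 tanycytes.

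Against astrocytes, with plate as a block, the division again rests on the genes that defined both kinds, and fed plate 1, with 3 astrocytes, was left out. Of 7118 genes, 2148 (30.2%) passed, 965 higher (13.6%) and 1183 lower (16.6%) in members, and 1238 passed without fed plate 3. Of 20 tanycyte identity genes 15 were higher and 4 lower. Fgf10, a growth factor of median eminence tanycytes, was at 202, 267 and 322 CPM in members (fasted, fed 2 and fed 3), against 7.34, 0 and 7.62 CPM in astrocytes, and Lhx2, a homeobox factor, at 362, 416 and 279 CPM, against 7.34, 11.7 and 22.9 CPM (4.57, SE 0.34). In 20 of the 143 astrocyte wells the markers of oligodendrocyte precursors were above the astrocyte sum, and 1875 genes passed without them.

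Of 14 thyroid hormone genes in this comparison, 5 were higher and 3 lower in members. Over all tested genes 13.6% were higher and 16.6% lower. Tshr, the receptor for thyrotropin, was at 197, 232 and 219 CPM in members (fasted, fed 2 and fed 3), against 14.7, 15.5 and 22.9 CPM in astrocytes (3.46, SE 0.35). Dio2 was higher by 2.46 (SE 0.38), Trhde by 2.75 and Rxra by 1.27. Slco1c1, the thyroxine transporter OATP1C1, was the other way round, at 21.3, 9.53 and 8.60 CPM in members, against 154, 69.9 and 61.0 CPM (-2.97, SE 0.42), and the receptor Thrb was lower too (-0.89, lost without fed plate 3). Glial transport genes were lower in members in 15 of 20 cases, with Aqp4, the water channel, at 112, 95.3 and 98.9 CPM, against 690, 641 and 968 CPM (-3.00, SE 0.21). Cholesterol synthesis genes were lower in 10 of 16 and higher in none, with Dhcr7 at -2.78. Ribosomal protein genes were higher in 21 of 23, with a median of 1.18.

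**Figure D4:**
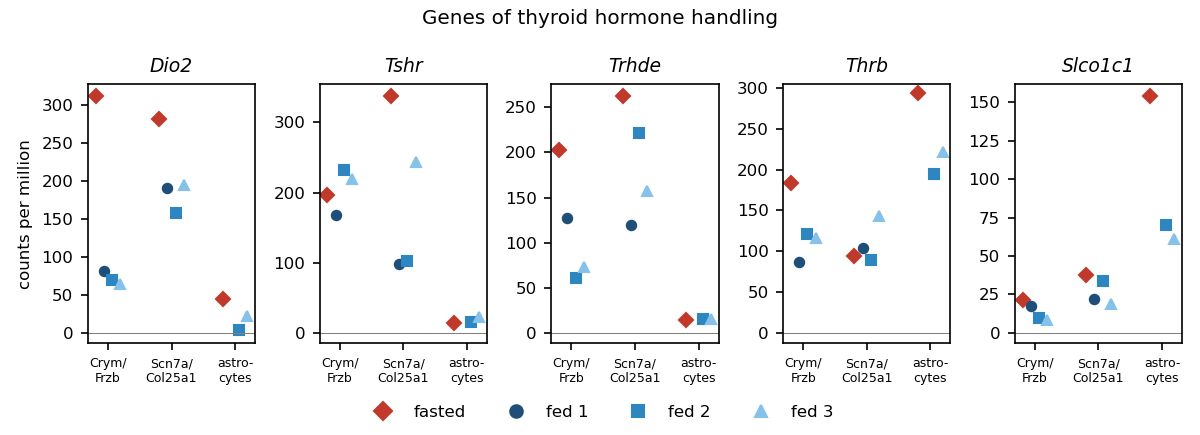
CPM of genes of thyroid hormone handling in Crym/Frzb tanycytes, Scn7a/Col25a1 tanycytes and astrocytes, each symbol 1 plate; fed plate 1 is absent for astrocytes. Tshr was at 168 to 232 CPM in Crym/Frzb tanycytes and 14.7 to 22.9 CPM in astrocytes, while Slco1c1 was at 8.60 to 21.3 and 61.0 to 154 CPM.

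The difference between fasted and fed was compared between both kinds of tanycyte as an interaction. Of 5929 genes 2 passed (0.0337%), the immediate early genes Fos and Egr1, and 590 had an unadjusted p under 0.05. In members Fos was at 588 CPM when fasted and 737, 241 and 391 CPM when fed, so the fasted plate lay within the fed range. In Scn7a/Col25a1 tanycytes it was at 113 CPM in the 7 fasted wells and 1786, 884 and 964 CPM when fed. The interaction was 3.87 on the log2 scale (SE 0.46, edgeR adjusted p = 5e-05), against a median of 0.15 over all genes. Egr1 followed at 3.24 (SE 0.59, adjusted p = 0.045), with 309 CPM in fasted members, against 331, 89.0 and 219 CPM when fed, and 93.9 CPM in fasted Scn7a/Col25a1 tanycytes, against 839, 421 and 469 CPM when fed. Egr1 did not pass without fed plate 3. The count was 10, 13 and 1 without fed plates 1, 2 and 3, and DESeq2 called neither gene, with 71 unadjusted p-values under 0.05.

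**Figure D5:**
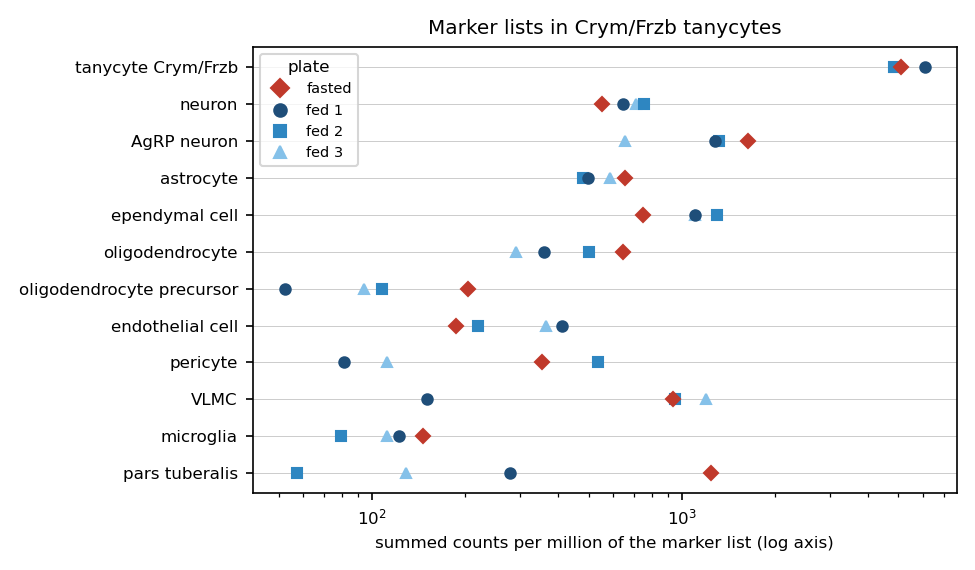
Summed CPM of each marker list in Crym/Frzb tanycytes on a log axis, each symbol 1 plate. The pars tuberalis sum was at 1240 CPM on the fasted plate and 57.2 to 278.6 CPM on the fed plates. The tanycyte marker list of Crym, Frzb, Gpr50, Rax and Slit2 was at 5112 and 4836 to 6094 CPM, and all but Gpr50 are in the member rule. Parts of the neuron, astrocyte and endothelial sums also consist of genes that chose the members.

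Markers of other cells were present in the members. The member rule caps 5 of the 9 neuron markers and sets 5 of the 10 astrocyte markers under the tanycyte sum, so these levels are partly fixed by the choice of wells. Summed neuron markers were at 554 CPM when fasted and 644 to 753 CPM when fed. AgRP neuron markers, whose counts were mostly Npy, were at 1634 CPM, against 653 to 1322 CPM, and Npy was at 1530 CPM, against 1225, 1258 and 606 CPM. Oligodendrocyte markers were at 647 CPM, against 292 to 502 CPM, and precursor markers at 205 CPM, against 52.2 to 108 CPM. Astrocyte markers were at 655 CPM, against 480 to 585 CPM. The part of these in the fasted and fed values was not tested.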

How the data were processed

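Cells were profiled with CEL-seq2, which tags each transcript's 3′ end with a UMI of 6 bases, and the submitters' processing notes name Trim Galore, STAR and the genome build mm10. The deposited values are expected counts, UMI counts per gene and well that the authors corrected for collisions among 4096 UMIs; every value traced back to a whole UMI within 1e-06. Which program counted the UMIs, and on which annotation, is not stated in the labels. Columns are numbered wells, so plates share well numbers, which identify no shared cell. No doublet caller was run.

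Counts were rounded per well, and wells of a kind were summed per plate without mitochondrial genes and spike-ins. Sums were tested in edgeR 4.0.16 (R 4.3.3, limma 3.58.1) with filterByExpr, TMM factors, robust glmQLFit and Benjamini-Hochberg adjustment. CPM levels in the text are of plain totals, while log2 differences and SE come from edgeR. DESeq2 1.42.0 was an alternative. A plate entered a comparison with at least 5 wells of a kind. On simulated data with log2 changes of 2, edgeR called 79.5% of changed genes for fasted against fed (7813 genes), 100% against Scn7a/Col25a1 tanycytes (5510), 97.3% against astrocytes (6655) and 60% for the interaction (5498). Unchanged genes called were 4, 9, 12 and 3 in the same order. Simulated counts took the dispersion of the fit, had no plate effect, and changed only genes above a minimum count. These percentages therefore check the code and do not measure how many real changes were found on these plates. Of 35998 gene identifiers 35945 are in GENCODE vM21, whose GRCm38 coordinates are given.

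Named genes were up to 12 in each direction by size of change among those with adjusted p under 0.05 and at least 30 CPM. The fasted plate also had to lie outside the fed range, or the sign had to be the same in every plate. Genes of fixed lists and the rule genes were added. Left out of the choice by size were rule genes, Xist, Tsix, Y-linked marker genes, mitochondrial genes, pseudogenes and unnamed gene models. Other X-linked genes, such as Frmpd4, Itm2a and Gria3, were not left out. Genes from the comparisons were also named by list. The members, the 37 gene lists and the 12 marker lists among them were chosen with earlier results of these data known. The count of wells behind a gene and its 3 highest wells were examined after the data were seen. Replicate numbers follow accession order and pair nothing.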

Additional observations from a re-analysis of the deposited data

Results flagged for a closer look

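The change between fasted and fed plates differed between both kinds of tanycyte for 2 genes by a test of the interaction. Fos differed by 3.87 on the log2 scale and Egr1 by 3.24, both for fasted against fed in Crym/Frzb tanycytes minus the same in Scn7a/Col25a1 tanycytes. Both rest on 7 fasted Scn7a/Col25a1 wells. Egr1 lost its call under 9 of the other settings, and Fos under DESeq2 alone (adjusted p = 0.06).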

How the results depend on the processing

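For fasted against fed no paired analysis was possible, because replicate numbers follow accession order and 1 fasted plate has no fed partner. The comparisons between kinds of cell were paired within plate by the block. Without the plate block, 92 genes passed against Scn7a/Col25a1 tanycytes in place of 210, of which 89 were the same. Against astrocytes 1710 passed in place of 2148. For fasted against fed, the 66 calls became 27 with DESeq2 (19 the same; 26 named genes had no adjusted p there), 103 with a mitochondrial share under 30%, 204 with a tanycyte sum of at least 20, 131 where the larger sum was 2 times the smaller, and 12 each with wells thinned to 1000 UMIs and with Xist-only wells. They became 206 without wells of higher VLMC and pericyte sum and 129 with Crym or Frzb counts required, both chosen after seeing the data. Leaving out 1 plate gave 88 to 186, the highest without fed plate 1, and 117 without fed plate 3. Against Scn7a/Col25a1 tanycytes DESeq2 gave 109, thinning 24 and the 2-times margin 350; leaving out 1 plate gave 92 to 262, with 127, 111 and 92 without fed plates 1, 2 and 3. Against astrocytes DESeq2 gave 1178, thinning 370 and leaving out 1 plate 1238 to 1999, the lowest without fed plate 3. The 2 interactions became 1 with DESeq2 size factors, a well minimum of 2000, a neuron sum under 4 or Crym or Frzb counts required, 0 with DESeq2, 16 with no filter on low counts, 4 with a mitochondrial share under 30% and 5 without wells of higher VLMC and pericyte sum; leaving out 1 plate gave 1 to 13. The causes were not tested. The interaction could not be fitted in Xist-only wells. Named genes kept their direction under every setting that gave a value, except Tgfb2, at -0.12 in Xist-only wells. The fasted share of members ran from 11.27 to 14.94% over the settings. After thinning, 29 of the 66 genes passed the filter on low counts and 5 of them kept their call.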
